A study of Mus musculus with 15 samples.

Results

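The 9 genes described here mark homeostatic microglia, the resting state of the resident macrophages of the brain and retina. Of these, 7 encode proteins of the cell surface (Tmem119, Cx3cr1, Fcrls, Siglech, Gpr34, Slc2a5 and Selplg) and 2 encode secreted proteins (Olfml3 and Sparc). They were taken by name, not by a measured value, and were read in the estimated counts summed per gene and in the authors' table of gene TPM (an abundance scaled for transcript length). All 9 of the 9 passed the filter on low counts and so belong to the 6521 genes tested, of 35519 with a gene model.

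Homeostatic microglia survey the tissue with motile processes and depend on TGF-beta and colony-stimulating factor signals from their surroundings. In degenerating brain and retina they can enter a neurodegenerative state, in which Apoe and galectin genes are switched on and many resting markers are turned down. Several of the 9 markers, Tmem119, Fcrls and Siglech among them, are used to tell microglia from monocytes that enter the tissue from blood.

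The microglia came from retinas of C57BL/6 mice aged 12 weeks. Wild-type mice gave 4 sham-injected and 3 microbead-injected retinas, and Apoe-/- mice, which lack the lipid carrier apolipoprotein E, gave 4 sham-injected and 4 microbead-injected retinas, with 1 library of RNA per retina. Microbeads hinder the outflow of fluid and raise the pressure of the eye, a model of glaucoma, and the study asked how microglia without Apoe respond to it. Cells were sorted for CD11b and Fcrls and against Ly6c. The Fcrls protein was therefore the sort marker, and cells that had lost it could enter no library. The sources used here do not say how long after injection the retinas were taken or how the Apoe allele was made. The labels do not say that the retinas came from separate mice, so the p-values cover only the spread among these libraries, which may in part be technical.

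Libraries held 458303 to 714838 reads assigned to genes. Between 40.8 and 74.4% of them lay on 12 gene models of the major satellite, a centromeric repeat. In wild type this share was 55.9 to 66.6% in sham and 40.8 to 53.5% in microbead libraries. The share thus did not overlap between these groups, and a fit with it as a covariate cannot tell it apart from the microbeads. In Apoe-/- the groups overlapped, at 64.7 to 74.4% and 55.4 to 70.7%. TMM-scaled library sizes ran from 225227 reads (library 2 of Apoe-/- sham) to 1000258 (library 2 of wild-type microbead). Apoe itself was at 1407 to 15121 CPM (reads per 1000000 of scaled library size) in wild-type libraries and at 0 to 15.7 CPM in Apoe-/- libraries, as the labels say. Of the defining microglial genes, Csf1r was at 990.1 to 3368 CPM and P2ry12 at 292 to 747 CPM over the 15 libraries. The neutrophil genes S100a9 and S100a8 had 0 and 1 reads over all 15 libraries. Each genotype had its own plate letter in the names of the tables, so genotype and plate cannot be told apart.

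On the mm10 build the 9 genes lie on 7 chromosomes. Tmem119 (ENSMUSG00000054675, chromosome 5, 113793729 to 113800516) and Selplg (ENSMUSG00000048163, chromosome 5, 113818536 to 113832644) are neighbours on the minus strand, 18019 bases apart. Fcrls (ENSMUSG00000015852, 87250758 to 87263738) and Olfml3 (ENSMUSG00000027848, 103722222 to 103738001) are both on the minus strand of chromosome 3. Siglech (ENSMUSG00000051504) lies on chromosome 7 from 55768178 to 55778925, plus strand, and Slc2a5 (ENSMUSG00000028976) on chromosome 4 from 150119283 to 150144169, plus strand. Sparc (ENSMUSG00000018593) lies on chromosome 11 from 55394500 to 55423183, minus strand. Gpr34 (ENSMUSG00000040229, chromosome X, 13632089 to 13640858, plus strand) sits inside Cask, which is on the other strand, and shares no exon bases with it. The Cx3cr1 model (ENSMUSG00000052336, chromosome 9, 119901616 to 120069879, minus strand) overlaps 9 other genes in whole or in part, 5 of them protein coding. Its only exon overlap is 78 bases between transcript Cx3cr1-203 and the antisense gene Gm33858. Whether the counting used strand is not stated in the sources at hand, so reads from those 78 bases cannot be assigned to either gene with certainty.

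Promoter sequences were given for 6 of the 9 genes by RefSeq on build GRCm38.p6 (Fcrls, Siglech, Slc2a5, Olfml3, Cx3cr1 and Sparc). The stretches printed here end before the first annotated exon. Because the promoter sequences of Fcrls, Cx3cr1 and Sparc lie mostly within annotated exons, only the stretches of Siglech, Slc2a5 and Olfml3 are shown. They cover chr7:55767954-55768177 (plus strand), chr4:150119114-150119235 (plus strand) and chr3:103738002-103738231 (minus strand), each read 5′ to 3′ along its gene, and capitals mark CAGAC, the letters of the SMAD box bound downstream of TGF-beta receptors, or its reverse complement GTCTG.
Siglech: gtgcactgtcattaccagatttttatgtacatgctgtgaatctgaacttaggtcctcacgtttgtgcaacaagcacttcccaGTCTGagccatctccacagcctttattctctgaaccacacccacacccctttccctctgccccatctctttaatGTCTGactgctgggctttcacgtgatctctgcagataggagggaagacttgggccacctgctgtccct
Slc2a5: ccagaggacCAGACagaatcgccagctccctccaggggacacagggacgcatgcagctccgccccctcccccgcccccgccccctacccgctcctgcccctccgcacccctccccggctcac
Olfml3: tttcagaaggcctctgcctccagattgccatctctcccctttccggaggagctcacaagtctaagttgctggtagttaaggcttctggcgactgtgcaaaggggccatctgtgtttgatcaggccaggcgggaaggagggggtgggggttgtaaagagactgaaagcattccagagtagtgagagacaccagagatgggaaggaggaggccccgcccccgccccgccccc

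In the whole windows of 300 bases, CAGAC occurred on either strand 3 times for Siglech, 5 times for Slc2a5, 2 times each for Fcrls, Cx3cr1 and Sparc, and 0 times for Olfml3. It occurs in 49.6% of all 32851 promoters of the table. GAGGAA, the core bound by the myeloid factor PU.1, occurred once each for Fcrls and Siglech, and is in 28.3% of all promoters. The longer GAGGAAGT was in none of the 6 and in 3.2% of all, and TATAAA was in Fcrls alone of the 6 and in 13.6% of all. None of these 4 motifs overlaps another in its letters except GAGGAAGT, which contains GAGGAA. Such matches are letters in a window and say nothing of binding.

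Compared per length, the 9 markers had a fixed top and a set of 3 lowest genes, and a middle whose order varied between libraries. On the authors' TPM scale, Selplg, which encodes the selectin ligand PSGL-1, had the highest level of the 9 in each of the 15 libraries, with a median of 213 TPM and a range of 90.8 to 337 TPM. Slc2a5, the fructose transporter GLUT5, had a median rank of 9 and 14.8 TPM (3.10 to 40.4). Between them, by median level, stood the fractalkine receptor gene Cx3cr1 at 140 TPM, Tmem119, a membrane protein of unsettled function, at 126, the sialic acid-binding receptor gene Siglech at 112 and Gpr34, a receptor for lysophosphatidylserine, at 89.5. Lower in the order came Sparc, a matricellular collagen-binding protein, at 73.3, the secreted olfactomedin-like glycoprotein gene Olfml3 at 36.9 and the Fc receptor-like gene Fcrls at 21.6.

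Only parts of this order were clear of the spread. Olfml3 ranked 7 or 8 and Fcrls 7 to 9 in all libraries, but Cx3cr1, Tmem119, Siglech and Gpr34 each ranked anywhere from 2 to 5 or 6, so these neighbours did not differ beyond their spread. In wild-type sham libraries the means were 246 ± 71.7 TPM (SD, n = 4) for Selplg, rank 35 from the top among 6472 genes, and 20.6 ± 5.62 TPM (SD, n = 4) for Slc2a5, rank 556.

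**Figure D1:**
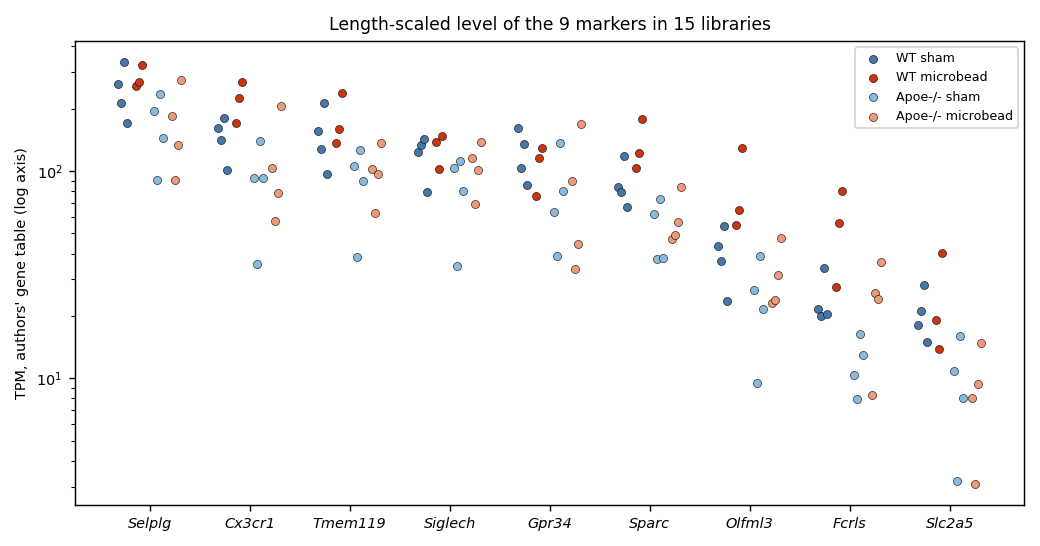
Level of the 9 markers in TPM of the authors' gene table (log axis), 1 dot per library, coloured by group (wild type abbreviated WT). Selplg lies highest in every library, Olfml3, Fcrls and Slc2a5 lowest, and the dots of Apoe-/- sham library 2 are among the lowest of each gene, for example 35.7 TPM for Cx3cr1.

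In wild-type microglia, edgeR called 0 of the 9 markers between microbead and sham retinas at an adjusted p of 0.05, against 13 genes or 0.199% of all genes tested. DESeq2 also called 0 of the 9, with 0.552% of all genes called. Before adjustment 4 of the 9, Slc2a5, Gpr34, Siglech and Selplg, had a p under 0.05, all of them lower with microbeads, against 3.63% of all genes. For 5 of the 9, these 4 and Tmem119, each microbead library lay below each sham library, against 4.22% of all genes. Both secreted markers, Cx3cr1 and Fcrls overlapped between the groups. The median log2 fold change of the 9 was -0.45, with 7 of 9 negative, beside -0.01 for all genes tested.

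These directions are on the scale of TMM-scaled counts. In the authors' TPM the mean was lower with microbeads for 1 of the 9 (Gpr34) in wild type, in place of 7. Fitted on log2(TPM + 1), the median over all genes lay 0.60 above that of the count fit in this comparison, and with this shift removed the log2 fold changes of Tmem119, Siglech, Gpr34, Slc2a5 and Selplg stayed negative, from -0.77 to -0.31, while those of Cx3cr1 (0.0019) and Sparc (0.017) turned. The fold changes below are therefore relative to the bulk of the genes.

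Slc2a5, which carries fructose into the cell, was at 185, 162, 192 and 144 CPM in the wild-type sham libraries and at 81.1, 58.0 and 120 CPM in the microbead libraries. Every microbead library was below every sham library. The means were 171 ± 21.9 CPM (SD, n = 4) and 86.4 ± 31.4 CPM (SD, n = 3). The log2 fold change was -0.99 (SE 0.33, edgeR unadjusted p = 0.0065, adjusted p = 0.442), or 0.50 times the sham level, with a 95% interval of -1.67 to -0.31. It was -0.53 with offsets for transcript length and -1.64 with the satellite share as a covariate, and was not called in either fit. Values with that covariate, here and below, rest on a share that did not overlap between the wild-type groups. Slc2a5 had 18 to 160 reads per library, the fewest of the 9.

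Gpr34, the lipid receptor gene, was at 447, 315, 308 and 327 CPM in wild-type sham and at 172, 176 and 189 CPM in microbead libraries. The 3 microbead libraries lay close together and below all sham libraries, of which library 1 stood highest. The log2 fold change was -0.96 (SE 0.34, edgeR adjusted p = 0.475), -0.83 without sham library 1 and -1.69 with the satellite covariate.

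Siglech, a receptor that signals through the adaptor Tyrobp, was at 656, 730, 623 and 598 CPM in wild-type sham and at 542, 292 and 401 CPM in microbead libraries. The groups did not overlap, and microbead library 1 came nearest to the sham range. The log2 fold change was -0.66 (SE 0.28, edgeR adjusted p = 0.551). Siglech is also made by plasmacytoid dendritic cells, whose 7 other markers summed to 269 to 442 CPM in sham and 335 to 423 CPM in microbead libraries. Their sum thus overlapped between the groups, but it rested mainly on Irf8, with 2062 reads over all 15 libraries. The most specific of them, Ccr9, Klk1 and Ly6d, had 65, 5 and 1 reads over all 15 libraries. The part of such cells in the Siglech level was not tested.

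The neighbouring genes Selplg and Tmem119 had smaller differences. Selplg, by which leukocytes bind selectins, was at 1690, 1553, 1825 and 1520 CPM in sham and 1311, 910 and 1124 CPM in microbead libraries of wild type. All microbead values were below all sham values (log2 fold change -0.56, SE 0.27, edgeR adjusted p = 0.631). Tmem119 was at 1235, 1054, 1360 and 1052 CPM in sham and 863, 712 and 1002 CPM in microbead libraries. Its groups were separated by a narrow gap, between 1002 and 1052 CPM (log2 fold change -0.45, SE 0.25, edgeR adjusted p = 0.701), and the satellite covariate put the value at -0.79.

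Cx3cr1, the receptor for the neuronal chemokine fractalkine, was at 2029, 1973, 1842 and 1710 CPM in wild-type sham and 1661, 1543 and 1717 CPM in microbead libraries. Microbead library 3 lay within the sham range. The log2 fold change was -0.20 (SE 0.28), with a 95% interval of -0.78 to 0.38, and -0.77 with the satellite covariate.

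Fcrls, the gene of the sort marker, was at 170, 175, 218 and 217 CPM in wild-type sham and 171, 246 and 331 CPM in microbead libraries. The groups overlapped, and the log2 fold change was positive (0.35, SE 0.36), from 0.097 without microbead library 3 to 0.56 without microbead library 1. Among the secreted markers, Olfml3 was at 737, 687, 767 and 555 CPM in sham and 736, 604 and 1151 CPM in microbead libraries, with microbead library 3 above all others and a log2 fold change of 0.27 (SE 0.30), which was -0.04 without that library. Sparc was at 536, 500, 614 and 488 CPM in sham and 536, 419 and 542 CPM in microbead libraries (log2 fold change -0.10, SE 0.25). The Sparc groups overlapped in part, microbead library 2 lying below all sham libraries.

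The count of markers with an unadjusted p under 0.05 depended on single libraries and on the fit. It was 2 in place of 4 without wild-type sham library 2, without wild-type microbead library 2 and without wild-type microbead library 3. It was 1 with length offsets and 2 without a filter. It was 5 with DESeq2, with the satellite covariate and without both shallow Apoe-/- libraries. The markers in these counts were all lower with microbeads. By contrast, limma on log2(TPM + 1) and on log2(TPM + 0.1), as fitted, gave 0 lower and 2 higher. The median of all genes there was 0.59 and 0.74, and the share of all genes at that p was not counted. In each fit of this paragraph the count of called markers was 0. Rod photoreceptor markers, 8 in number, differed between the same libraries and summed to 487 to 2144 CPM in wild-type sham and 80.0 to 526 CPM in microbead libraries. Their part in the marker differences was not tested. Endothelial and pericyte markers, cells that also make Sparc, summed to 31.2 to 45.4 CPM in sham and 12.0 to 36.2 CPM in microbead libraries, while Sparc was at 419 to 614 CPM. Over all 15 libraries these 10 genes had from 5 reads (Bgn) to 173 reads (Pecam1), and the part of such cells was not tested. In bulk RNA of sorted cells, fewer cells with a transcript and less of it per cell cannot be told apart.

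**Figure D2:**
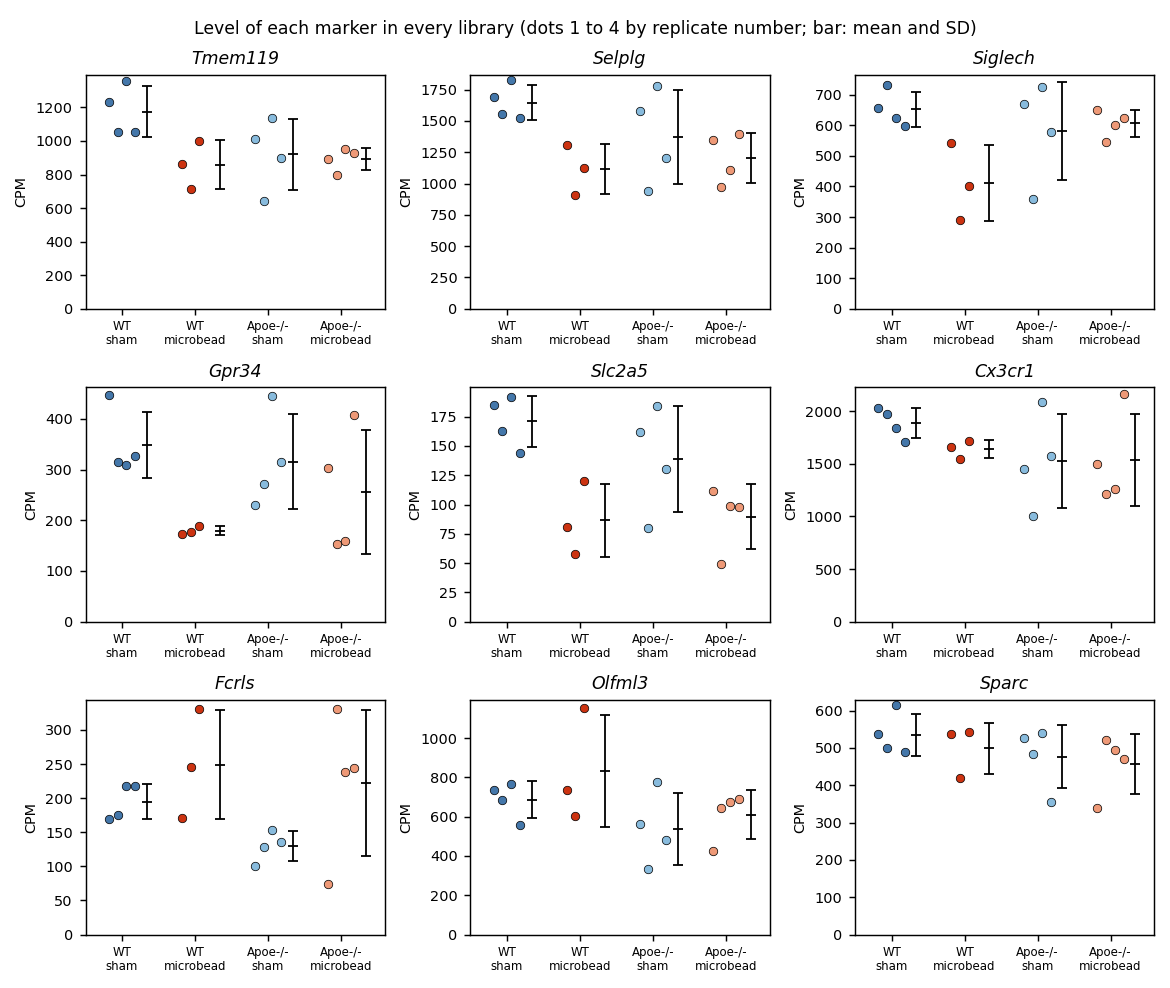
CPM of each marker (linear axis from 0) in every library of the 4 groups, with the mean and SD of each group at the right of its dots. Tmem119, Selplg, Siglech, Gpr34 and Slc2a5 show the 3 wild-type microbead dots below the 4 sham dots, while in Apoe-/- the dots of microbead and sham libraries overlap for all 9 markers.

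In Apoe-/- microglia, edgeR called 0 of the 9 markers between microbead and sham retinas, and 0 genes (0%) of all those tested. DESeq2 called 0 of the 9 as well. An unadjusted p under 0.05 was found for 1 marker that was lower, Slc2a5, and 1 that was higher, Fcrls, against 3.63% and 3.31% of all genes. Slc2a5 lost that p without any 1 of wild-type sham libraries 1, 2 and 3 and wild-type microbead library 1. It also lost that p without any 1 of Apoe-/- sham libraries 1, 3 and 4 and Apoe-/- microbead libraries 2 and 3. Without Apoe-/- microbead library 4, 1 of the 9 markers was lower at that p. Fcrls lost it without any 1 of Apoe-/- sham libraries 1, 2 and 4 and microbead libraries 2, 3 and 4. Slc2a5 also lost it with length offsets (-0.34), without a filter and with TMM that left out the satellite models. None of the 9 was free of overlap between the groups, against 0.951% of all genes lower and 1.55% higher without overlap. The median log2 fold change of the 9 was -0.05, beside 0.0079 for all genes. Rod markers summed to 125 to 1283 CPM in Apoe-/- sham and 131 to 2232 CPM in Apoe-/- microbead libraries, and their part here was not tested.

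Slc2a5 was at 162, 79.9, 184 and 130 CPM in Apoe-/- sham and 112, 49.2, 99.1 and 98.0 CPM in microbead libraries. Sham library 2, the shallowest of all 15, was low and made the groups overlap. The log2 fold change was -0.65 (SE 0.31, edgeR unadjusted p = 0.0475, adjusted p = 0.700). Fcrls was at 99.9, 129, 153 and 136 CPM in sham and 74.6, 331, 239 and 244 CPM in microbead libraries. Of the microbead libraries 3 lay above all sham libraries and library 1 below them (log2 fold change 0.77, SE 0.34, edgeR unadjusted p = 0.0361, adjusted p = 0.700).

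Gpr34 was uneven among the Apoe-/- microbead libraries, at 302, 153, 159 and 408 CPM, against 231, 271, 445 and 316 CPM in sham. Libraries 2 and 3 were below the sham range, near the wild-type microbead level, and libraries 1 and 4 were within it. Siglech was at 669, 360, 725 and 577 CPM in sham and 650, 546, 603 and 625 CPM in microbead libraries, with all microbead values inside the sham range. The log2 fold changes were -0.30 (SE 0.31) for Gpr34 and 0.05 (SE 0.26) for Siglech.

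Tmem119 was at 1009, 639, 1136 and 900 CPM in Apoe-/- sham and 891, 798, 952 and 926 CPM in microbead libraries. Selplg was at 1577, 937, 1778 and 1205 CPM in sham and 1349, 975.2, 1106 and 1397 CPM in microbead libraries. For both genes all microbead values lay inside the sham range, which sham library 2 extended downward. Tmem119 had a log2 fold change of -0.05 (SE 0.23) and Selplg one of -0.19 (SE 0.25).

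Cx3cr1 was at 1451, 1003, 2084 and 1578 CPM in Apoe-/- sham and 1500, 1216, 1262 and 2169 CPM in microbead libraries, with a log2 fold change of 0.0057 (SE 0.26). Olfml3 was at 561, 333, 774 and 480 CPM in sham and 427, 645, 676 and 691 CPM in microbead libraries (0.18, SE 0.28). Sparc was at 526, 484, 541 and 355 CPM in sham and 340, 522, 496 and 470 CPM in microbead libraries (-0.06, SE 0.23). None of these 3 genes separated the groups.

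The difference between the responses of the genotypes was tested directly. With edgeR 0 of the 9 markers were called, as were 0 genes (0%) of all tested, and 0 of the 9 had an unadjusted p under 0.05, against 3.39% of all genes. DESeq2 called 0 of the 9, with an unadjusted p of 0.0323 for Siglech. The edgeR estimate (Apoe-/- response minus wild-type response) was positive for 8 of the 9, with a median of 0.37 beside 0.0045 for all genes. The smallest edgeR p belonged to Siglech, at 0.72 (95% interval -0.07 to 1.505, unadjusted p = 0.0716). For Gpr34 it was 0.66 (-0.29 to 1.61), for Tmem119 0.40 (-0.31 to 1.12), for Slc2a5 0.35 (-0.58 to 1.27) and for Olfml3 -0.10 (-0.97 to 0.78). Each interval includes 0 as well as sizable differences, so neither a different nor an equal response of the genotypes was shown for any marker.

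**Figure D3:**
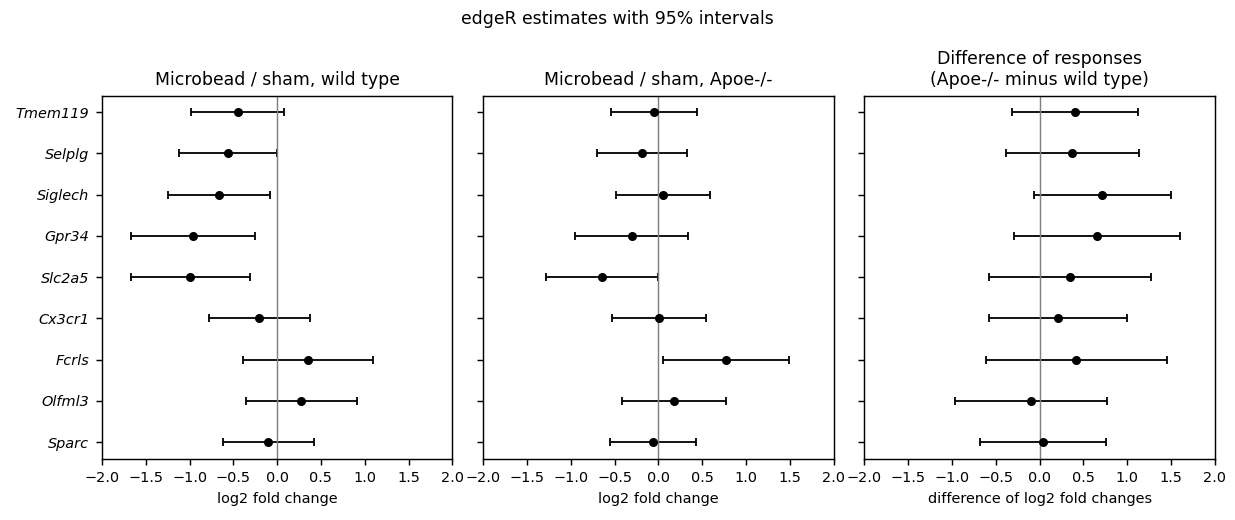
edgeR log2 fold change of each marker between microbead and sham in wild type and in Apoe-/-, and the difference of those responses, with 95% intervals. In wild type Slc2a5 (-0.99), Gpr34 (-0.96) and Siglech (-0.66) lie farthest to the left with intervals clear of 0, while all 9 intervals of the difference include 0.

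Over both genotypes together, the mean effect of microbeads had its smallest p for Slc2a5 and Gpr34. For Slc2a5 the log2 fold change was -0.82 (SE 0.22, edgeR unadjusted p = 0.00156, adjusted p = 0.154), and for Gpr34 it was -0.63 (SE 0.23, unadjusted p = 0.0119, adjusted p = 0.261). Fcrls was at 0.56 (SE 0.25, unadjusted p = 0.0338, adjusted p = 0.352). edgeR called 0 of the 9, against 0.199% of all genes, and 3 of the 9 had an unadjusted p under 0.05, against 12.3% of all genes. DESeq2 called 2 of the 9, Slc2a5 (adjusted p = 0.00814) and Gpr34 (adjusted p = 0.0429). It called 13.9% of the 832 genes that its own filter left for adjustment, so the tools differed on these markers.

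Between the genotypes, 0 of the 9 markers were called by edgeR or DESeq2 in sham retinas, where each tool called 0.0153% of all genes, and 0 had an unadjusted p under 0.05, against 8.68% of all genes. Both limma fits on log2 TPM, with the shift of the all-gene median left in, put 4 of the 9 lower at an unadjusted p under 0.05. The median of all genes was itself -0.30 on log2(TPM + 1) and -0.43 on log2(TPM + 0.1), and the share of all genes at that p was not counted. With edgeR all 9 had a lower estimate in Apoe-/- sham, from -0.59 for Fcrls to -0.14 for Gpr34 (0.14 with the satellite share as a covariate), with a median of -0.28 beside -0.01 for all genes. Without Apoe-/- sham library 2 that median was -0.14, and 8 of the 9 were negative. Fcrls was the 1 marker of 9 without overlap there, against 2.39% of all genes that were lower without overlap. Apoe-/- sham library 2, with the highest satellite share (74.4%), had the lowest mean log2 CPM of the 9 among all 15 libraries, at 8.50 against 8.86 to 9.33 in the other sham libraries. The part of depth in that library was not tested, and without it the difference of Siglech, for one, was 0.0148 in place of -0.16.

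In microbead retinas, edgeR and DESeq2 again called 0 of the 9 between the genotypes, and 0 had an unadjusted p under 0.05 with edgeR, against 7.19% of all genes. With DESeq2 Siglech had an unadjusted p of 0.0190. Both limma fits on log2 TPM, with the shift of the all-gene median left in, put 7 of the 9 lower at an unadjusted p under 0.05. The median of all genes was itself -0.73 on log2(TPM + 1) and -0.94 on log2(TPM + 0.1). The share of all genes at that p was not counted, so these 7 cannot be set apart from the bulk. Between the genotypes with microbeads, edgeR called 0.046% of all genes and DESeq2 4.49% of those it adjusted. Siglech was the 1 marker of 9 that was higher in every Apoe-/- microbead library than in any wild-type one, 546 to 650 CPM against 292 to 542 CPM, beside 3.14% of all genes. Its log2 fold change was 0.56 (SE 0.28, edgeR unadjusted p = 0.0584, adjusted p = 0.691), and 0.35 without wild-type microbead library 2. These comparisons and those of the microbead response share samples, so they are not separate evidence.

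For the mean genotype effect, edgeR and DESeq2 called 0 of the 9, against 0.0153% and 10.8% of the genes each adjusted. With edgeR 0 of the 9 had an unadjusted p under 0.05, against 12.8% of all genes. limma on log2(TPM + 1) called 5 of the 9 lower in Apoe-/-, Cx3cr1, Fcrls, Slc2a5, Olfml3 and Sparc, against 11.3% of all genes called lower. On that scale the median of all genes was shifted by -0.51. The calls are those of the fit with the shift, and with it removed these 5 were at -0.77 to -0.45.

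Ratios between markers inside a library do not depend on the scaling of libraries. They were taken on reads, with no correction for transcript length. This measure was chosen after the values were seen and carries no test. Among all 36 pairs of the 9 markers, the log2 ratio of reads did not overlap between wild-type sham and microbead libraries for 15 pairs, which share genes and are not independent. Of all 1046181 pairs of genes with at least 50 CPM, 15.8% did not overlap. In Apoe-/- it was 2 of 36 marker pairs, against 2.31%. Slc2a5 over Cx3cr1 was the 1 pair without overlap in both genotypes, with Slc2a5 lower relative to Cx3cr1 in each. In the authors' TPM this pair overlapped in both genotypes. In wild type, Slc2a5 and Cx3cr1 were at 40.4 and 269 TPM in microbead library 3, and at 18.2 and 162 TPM in sham library 1. In Apoe-/- they were at 9.40 and 78.1 TPM in microbead library 3, and at 8.01 and 93.1 TPM in sham library 4.

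The wild-type pairs without overlap were mostly a surface marker against a secreted one. Of the 14 such pairs 10 were lower in all 3 microbead libraries than in any sham library, namely Tmem119, Siglech, Gpr34, Slc2a5 and Selplg against both Olfml3 and Sparc. In the authors' TPM, Slc2a5 and Siglech against Sparc overlapped, and the rest of these pairs stayed apart. Slc2a5 and Sparc were at 40.4 and 179 TPM in microbead library 3, and at 18.2 and 83.9 TPM in sham library 1. Siglech and Sparc were at 138 and 103 TPM in microbead library 1, and at 79.2 and 67.0 TPM in sham library 4. The ratios of Cx3cr1 and Fcrls to Olfml3 and to Sparc overlapped. In Apoe-/- 0 of the 14 were without overlap.

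The log2 ratio of Slc2a5 to Olfml3 was -1.99, -2.08, -2 and -1.95 in the wild-type sham libraries and -3.18, -3.38 and -3.26 in the microbead libraries. In reads, the gap between the groups was many times the spread within them, with means of -2.004 ± 0.056 (SD, n = 4) and -3.27 ± 0.10 (SD, n = 3). In the authors' TPM the groups stayed apart, but by a gap smaller than the range of the TPM ratio within each group. There Slc2a5 and Olfml3 were at 19.1 and 55.2 TPM in microbead library 1, and at 18.2 and 43.3 TPM in sham library 1. In Apoe-/- the same ratio was -1.80, -2.06, -2.07 and -1.88 in sham and -1.93, -3.71, -2.77 and -2.82 in microbead libraries. There 3 of the 4 microbead libraries lay below all sham libraries, and microbead library 1 within their range.

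The log2 ratio of Selplg to Sparc was 1.66, 1.64, 1.57 and 1.64 in wild-type sham and 1.29, 1.12 and 1.05 in microbead libraries. Again the sham libraries lay close together and no microbead library reached them. In Apoe-/- it was 1.58, 0.95, 1.72 and 1.76 in sham and 1.99, 0.90, 1.16 and 1.57 in microbead libraries, a wide overlap. Apoe-/- microbead library 1 had the highest ratio of all 15 libraries for Selplg to Sparc, and it also had the lowest Fcrls and Sparc levels of all. The 7 markers of border-associated macrophages summed to 133 CPM in that library, the highest of all 15, against 28.0 to 108 CPM in the others, and their part was not tested.

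**Figure D4:**
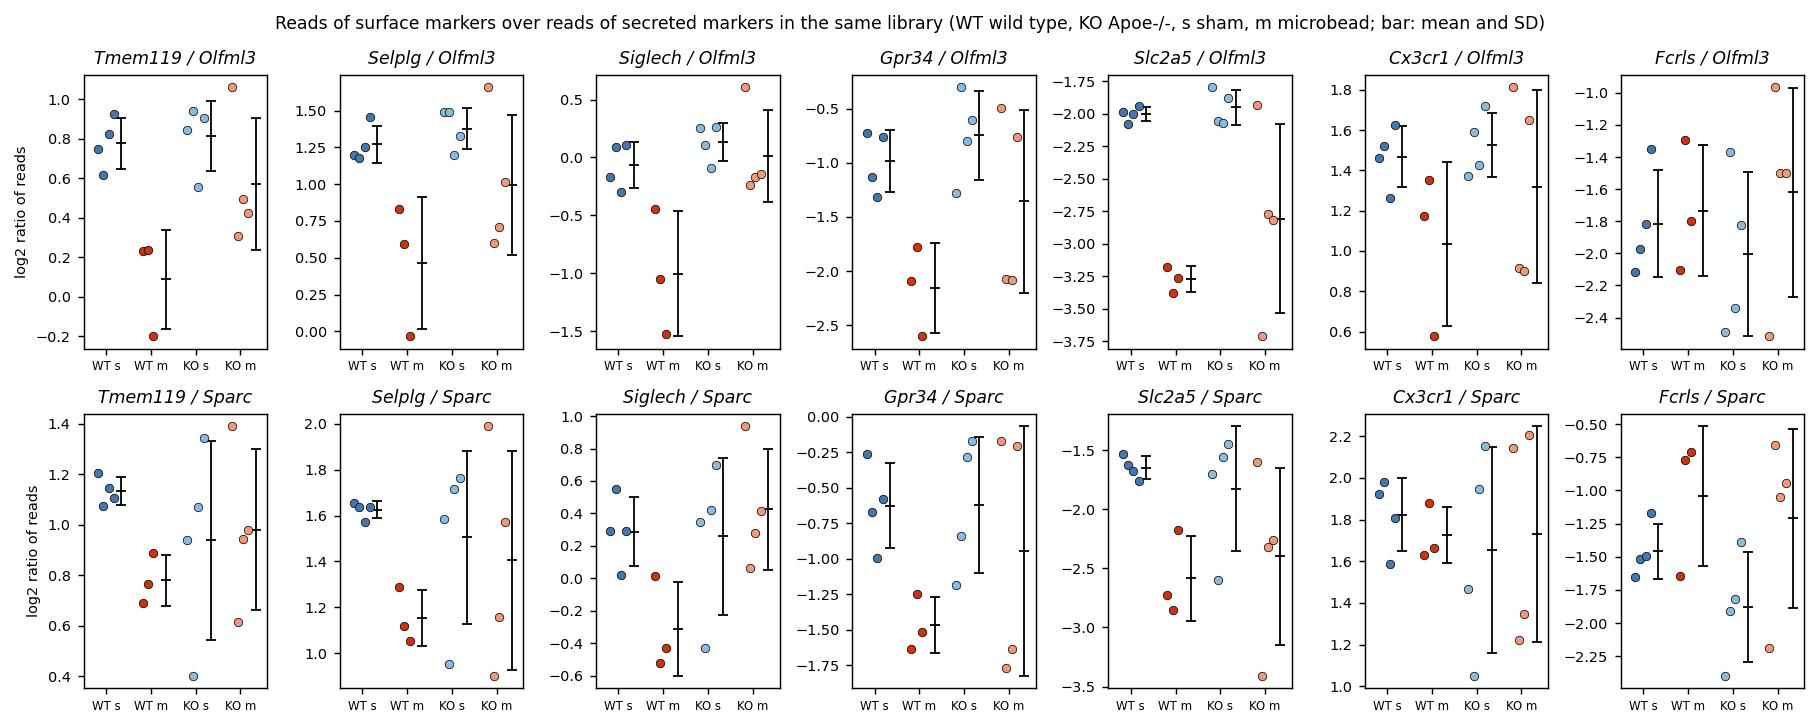
log2 ratio of the reads of each surface marker to those of Olfml3 (upper row) and Sparc (lower row) in the same library, 1 dot per library, with the mean and SD of each group; each panel has its own axis. In wild type 10 of the 14 panels show the 3 microbead dots below the 4 sham dots, and in Apoe-/- none does.

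Across the 15 libraries the surface markers other than Fcrls varied together in log2 CPM. These correlations pool 4 groups, share library scaling and are given as descriptions. The highest was between the chromosome 5 neighbours Tmem119 and Selplg (r = 0.89, 15 libraries), followed by Slc2a5 with Selplg (0.88) and with Tmem119 (0.85). Fcrls stood apart, with r of -0.37 to -0.29 to Gpr34, Slc2a5, Siglech and Selplg, and was nearest among the members to Olfml3 (0.64) and Sparc (0.46). The secreted markers correlated with each other at 0.60, and Olfml3 and Gpr34 at -0.10.

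Among 1466 genes of at least 50 CPM, those most like the mean of the 9 markers were Ivns1abp (r = 0.91, 15 libraries), Frmd4a (0.89), Arap3 (0.85), Plxdc2 (0.85) and Susd3 (0.84). The single gene most like each marker was Selplg for Tmem119 and for Slc2a5, Ivns1abp for Selplg (0.89), Mbnl1 for Cx3cr1 (0.89), Atp8a2 for Siglech (0.88) and Numb for Gpr34 (0.87). It was Slc15a4 for Olfml3 (0.89), Lag3 for Fcrls (0.83) and Syngr1 for Sparc (0.78).

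Reads were spread over annotated transcripts unevenly, by Salmon's estimates. Over all libraries Fcrls-201 held 100% of Fcrls reads, Tmem119-201 99.9% of Tmem119 and Selplg-201 96.9% of Selplg. Gpr34-202 held 86.1% of Gpr34 reads. Siglech was the most divided, with 45.0% on Siglech-201 and 9.09% on Siglech-204, which is annotated for nonsense-mediated decay. For Olfml3, 71.1% of reads were placed on Olfml3-202, annotated as a retained intron, and 28.9% on the protein-coding Olfml3-201.

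Some of these shares differed between groups or libraries. Slc2a5-201 held 89.7% ± 4.57 (SD, n = 4) of Slc2a5 reads in wild-type sham and 80.7% ± 8.54 (SD, n = 3) in microbead libraries, the rest lying on short forms of 594 to 799 bases. The wild-type microbead library with 120 CPM of Slc2a5 had 40.4 TPM, the highest of all 15. The part of the short forms in that level was not tested. In Apoe-/- the share of Sparc reads on Sparc-209 was 24.8% ± 10.4 (SD, n = 4) with sham and 4.22% ± 8.45 (SD, n = 4) with microbeads. Sparc-208, of 1269 bases against 1304 for Sparc-209, went the other way. Its share was 0% with sham and 18.93% ± 12.96 (SD, n = 4) with microbeads in Apoe-/-. Whether reads passed from one of these forms to the other by estimate was not tested. The share of Siglech reads on Siglech-204 was 6.32% ± 3.56 with sham and 17.6% ± 6.77 (SD, n = 4) with microbeads in Apoe-/-. Cx3cr1-202 held 65.6% of Cx3cr1 reads over all libraries but 0% in Apoe-/- sham library 2, where Cx3cr1-201 held 96.1%. These shares were not tested, and transcripts that overlap in sequence share reads by estimate.

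The 35 other homeostatic genes on the list were all tested and 0 were called by edgeR in either genotype, against 0.199% of all genes in wild type and 0% in Apoe-/-. In wild type 3 of 35 had an unadjusted p under 0.05 and a lower level with microbeads and 2 of 35 a higher one, against 3.63% and 4.23% of all genes, and the median log2 fold change was -0.09. The smallest p belonged to Lag3, an inhibitory receptor gene, at 1.24 (SE 0.41, unadjusted p = 0.00717, adjusted p = 0.454). It was followed by Ltc4s, leukotriene C4 synthase, at -0.80 (SE 0.30, adjusted p = 0.511) and Cst3, cystatin C, at -0.68 (SE 0.26, adjusted p = 0.517). In Apoe-/- 1 of 35, Lag3, had an unadjusted p under 0.05 (1.15, SE 0.41, unadjusted p = 0.0104, adjusted p = 0.700), against 3.31% of all genes that were higher, and the median was 0.08. Lag3, the gene most like Fcrls above, had a positive log2 fold change in both genotypes, as Fcrls did. That likeness was measured over these same libraries, so the shared direction is not separate evidence.

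Most ligands, partners and relatives of the markers had too few reads to be tested. Of 23 such genes 7 were tested, and in either genotype edgeR called 0 of them, with 0 at an unadjusted p under 0.05. Of all genes 0.199% were called in wild type and 0% in Apoe-/-, and at an unadjusted p 3.63% were lower and 4.23% higher in wild type. The fractalkine gene Cx3cl1 had 1 read over all 15 libraries, and the selectin genes Selp and Sele, whose proteins bind the Selplg product, had 6 and 5. Tyrobp, the adaptor of Siglech, had 4188 reads. Its mean in wild type was 428 ± 20.8 CPM (SD, n = 4) with sham and 583 ± 44.7 CPM (SD, n = 3) with microbeads (log2 fold change 0.45, SE 0.26, edgeR adjusted p = 0.716), the direction opposite to that of Siglech.

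Genes of the neurodegenerative state in the same libraries serve as the counterpart. In wild type edgeR called 8 of 15 at an adjusted p under 0.05, all higher with microbeads, against 0.199% of all genes, and 13 of 15 had a positive log2 fold change (median 2.21). The called genes included Lgals3 (6.16, edgeR adjusted p = 0.00186) and Apoe (2.80, edgeR adjusted p = 0.0045). In Apoe-/- edgeR called 0 of 15, as it called 0% of all genes. There 5 of 15 were higher at an unadjusted p under 0.05, against 3.31% of all genes, and 13 of 15 were positive (median 1.00). The 15 include Apoe itself, which these mice lack, so its response in Apoe-/- and its difference of responses cannot be read. For the difference of the responses 0 of 15 were called, with 4 at an unadjusted p under 0.05, against 3.39% of all genes. This list was drawn up with earlier results of these samples known, so its count is not independent evidence.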

How the data were processed

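RNA of sorted retinal microglia was measured in 15 libraries, grouped by their labels. The authors deposited Salmon transcript tables with estimated counts, TPM and effective lengths in bases (another unit, used only for length offsets), per the file headers, and a table of gene TPM for all libraries, per the file headers. The submitters' processing notes name Salmon 1.4.0, R 4.0.3, DESeq2 1.30.1 and mm10. Estimated counts were summed per gene with GENCODE release M21 and rounded. Transcripts without a gene, 0.217 to 0.354% of reads, were left out. TPM summed in the same way matched the authors' gene TPM in 135 of 135 values of the 9 markers (relative tolerance 0.001).

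One edgeR model (version 4.0.16, R 4.3.3; quasi-likelihood F-test, TMM, filterByExpr) held all 15 libraries in 4 groups, and 7 contrasts were taken from it. P-values are two-sided, and Benjamini-Hochberg adjustment covered all 6521 genes, calls being made at 0.05. SE is the standard error of a log2 fold change. CPM uses TMM-scaled library sizes, and log2 CPM a prior count of 2. A gene at 0 reads could be at up to 3.00 to 13.3 CPM on that scale, taking 3 reads as the limit, which covers counting error only. Alternatives were DESeq2 1.42.0, other size factors, filters, length offsets, the satellite share as a covariate, limma 3.58.1 on log2 TPM, a replicate block and leaving out each library. The fits were tested on simulated data.

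Named genes were the 9 markers, the genes most correlated with them (mean of at least 50 CPM), and up to 3 of smallest p from each list. Markers and lists were chosen with earlier results of these data known.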

Additional observations from a re-analysis of the deposited data

Results flagged for a closer look

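One value of the 9 markers stood apart from its group. Gpr34 was at 447 CPM in wild-type sham library 1, and at 308 to 327 CPM in the other 3 libraries of that group, so that the gap to its nearest neighbour took up 0.864 of the group's range, above the critical value of 0.829 for 4 samples. Such a gap was looked for in 27 sets of 4 libraries, and chance gives about 1 in 20.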

How the results depend on the processing

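With edgeR and any normalization, filter, length offset or covariate tried, and without any single library, 0 of the 9 markers were called in any of the 7 comparisons. The exceptions came from other tools. DESeq2 called 2 for the mean microbead effect and limma on log2(TPM + 1) called 5 for the mean genotype effect. In the authors' TPM a lower mean with microbeads was seen for 1 of the 9 in wild type and 1 of the 9 in Apoe-/-, against 7 and 5 in CPM. Among 1638 alternative values 62 changed sign, 0 of them called. Signs were compared after any large shift of the all-gene median from the main fit was removed. As fitted, more values changed sign. In wild type 1 of the 9 was negative with microbeads on log2(TPM + 1) as fitted, against 7 in the main fit. The cause of these changes was not tested.

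On log2(TPM + 1), with the shift of the all-gene median removed, the log2 fold change with microbeads in wild type was 0.0019 for Cx3cr1 and 0.017 for Sparc, and in Apoe-/- 0.048 for Tmem119 and 0.015 for Sparc. Their mean effects were 0.064 for Cx3cr1 and 0.020 for Sparc, and the mean genotype effect was -0.14 for Gpr34. Between the genotypes with microbeads it gave -0.095 for Tmem119, -0.64 for Slc2a5 and -0.086 for Selplg. For Slc2a5 there, log2(TPM + 0.1) gave -0.55 with a shift of -0.96 removed, and length offsets gave -0.60 with none removed. Without a filter, Cx3cr1 in Apoe-/- was at -0.0079 once a shift of 0.12 in the all-gene median was removed, and was positive as fitted. In that fit, with no shift removed, the mean effect on Sparc was 0.0025. Between the genotypes with microbeads, also with none removed, Tmem119 was at -0.036 and Slc2a5 at -0.019. A filter of 10 reads in 7 libraries put Cx3cr1 in Apoe-/- at -0.0091.

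With the satellite share as a covariate, Olfml3 was at -0.19 in wild type, 0.29 for the difference of responses and -0.042 for the mean effect, Cx3cr1 at -0.14 in Apoe-/- and Gpr34 at 0.14 between sham groups. It gave 0.54 for Cx3cr1 and 0.11 for Olfml3 between microbead groups, and mean genotype effects of 0.12 for Tmem119, 0.22 for Cx3cr1, 0.39 for Slc2a5 and 0.16 for Selplg. Leaving out both shallow Apoe-/- libraries, chosen after seeing the data, gave -0.058 for Cx3cr1, -0.075 for Siglech and -0.023 for Olfml3 in Apoe-/-, and -0.028 for the Sparc difference of responses. It gave 0.016 for Siglech between sham groups, 0.0025 for Cx3cr1 between microbead groups, and mean genotype effects of 0.078 for Slc2a5 and 0.046 for Selplg.

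Leaving out 1 library at a time moved Sparc in wild type from -0.17 to 0.0061 and Olfml3 from -0.039 to 0.45. In Apoe-/- it moved Cx3cr1 from -0.22 to 0.19, Siglech from -0.12 to 0.17, Tmem119 from -0.19 to 0.062 and Sparc from -0.19 to 0.048. The difference of responses ran from -0.078 to 0.16 for Sparc, -0.28 to 0.21 for Olfml3 and -0.0051 to 0.40 for Cx3cr1. Siglech between sham groups ran from -0.29 to 0.015. Between microbead groups Tmem119 ran from -0.073 to 0.17, Slc2a5 from -0.17 to 0.37, Selplg from -0.020 to 0.24 and Fcrls from -0.42 to 0.12. Mean genotype effects ran from -0.23 to 0.042 for Slc2a5 and -0.15 to 0.0011 for Selplg.

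Replicate numbers did not pair the samples. Deviations of the 21 same-numbered pairs correlated at a median of -0.0079 (-0.17 to 0.22), and 2 of 15 libraries correlated best with their own number. With the replicate number as a block, 0 of the 9 were called in every comparison, 4 had an unadjusted p under 0.05 in wild type as before, and the Olfml3 difference of responses was 0.027.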
